A study of Homo sapiens with 71 samples.

Results

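Acute phase proteins are plasma proteins whose synthesis in the liver changes during inflammation. Described here were 10 genes of acute phase and inter-alpha inhibitor proteins in HepG2, a human hepatoma cell line, exposed to river water: ITIH1, ITIH2, ITIH3, ITIH4, HP, HPX, LBP, CRP, ORM1 and A2M. Whether and in which direction each of them changes in inflammation was not tested. The 10 genes were chosen by symbol from a table of 31012 features, of which 12425 had any count. All 10 had counts, and 7 passed the filter on low counts and were tested among 6947 features. ITIH4, LBP and CRP were too low to test and are given as summed counts.

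Inter-alpha inhibitors are assembled in hepatocytes from a light chain, bikunin, encoded by AMBP, and heavy chains encoded by the ITIH genes, which are transferred to hyaluronan and stabilize the extracellular matrix. Haptoglobin (HP) and hemopexin (HPX) bind free haemoglobin and haem, LBP and CRP recognize microbial surfaces, orosomucoid (ORM1) carries lipophilic molecules in plasma, and alpha-2-macroglobulin (A2M) traps proteases of many classes. Interleukin-6 acts through STAT3 and C/EBP factors on many of these genes, and interleukin-1 acts through NF-kappa-B.

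The study asked what tributary water does to liver cells. HepG2 cells pooled from the same flasks were plated in dishes, grown for 72 h and kept for 48 h in medium made up with 75% water from 1 of 16 sites (BRWI, CRMI, CROH, FRWI, GRMI, GRNY, IHIN, JRMI, LRMN, MAWI, MIWI, MROH, ORNY, RRMI, SRMI and VROH; 4 libraries each, 3 for MIWI) or with purified water in the same share (CTRL, 8 libraries). The sites go by the codes of the labels. Every group was the same line in serum-containing medium with antibiotics, and no cytokine was named as added. Because all dishes came from the same pooled cells, p-values measure the spread between dishes. RNA was read with TempO-Seq, a targeted assay in which pairs of detector probes are ligated on each transcript and counted, so levels are not comparable between genes and no length scale applies. Levels are given in CPM, counts relative to the library's total, after TMM, a scaling that sets the bulk of genes level between libraries.

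Library totals were 2.91 to 9.89 M counts at the sites, apart from VROH 2 with 8872 counts, and 8.18 to 14.5 M in controls. VROH 2, CRMI 1 and SRMI 3 stood farthest from their own groups, with an SD of log2 differences from the mean of the rest of 3.36, 1.76 and 1.23 over 6947 features. The other VROH libraries were next, at 1.17 to 1.22 against a mean that holds VROH 2, so SRMI 3 was not set off from them by this measure; the 3 were taken from earlier results of these data. Each result is therefore given with all 71 libraries and without these 3. The hepatocyte and hepatoma markers, 8 of 8 tested, summed to 141000 to 232000 CPM at the sites without the 3 libraries and 144000 to 201000 CPM in controls. Of 6 immune markers PTPRC was at 0 in all libraries, and of 4 endothelial markers KDR was at 0. The immune markers summed to 750 to 3880 CPM at the sites and 1510 to 2130 CPM in controls, the 4 endothelial markers to 1.26 to 4.97 CPM at the sites and 2.27 to 4.22 CPM in controls, the 6 fibroblast markers to 18.5 to 67.1 and 38.4 to 63.4 CPM, and the 3 biliary markers to 2290 to 4110 and 2460 to 3540 CPM. In such bulk cultures fewer cells expressing a gene and less RNA per cell cannot be told apart.

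ITIH1, ITIH3 and ITIH4 lie next to each other on chromosome 3 (GRCh38, GENCODE release 29): ITIH1 at chr3:52777592-52792068 on the plus strand, ITIH3 at chr3:52794768-52809009 on the plus strand and ITIH4 at chr3:52812975-52831479 on the minus strand, with 2699 bases between ITIH1 and ITIH3 and 3965 between ITIH3 and ITIH4. ITIH2 is on chromosome 10 (chr10:7703269-7749520, plus). ITIH4 overlaps ITIH4-AS1, an antisense gene on the plus strand (chr3:52823935-52825314), and no source at hand states whether reads were counted by strand. Promoters are shown for ITIH3, the heavy chain that differed most between sites, for its neighbour ITIH4, which was near the counting limit, and for ORM1, which differed between sites on a smaller scale. They are RefSeq sequences of GRCh38.p14, read 5′ to 3′ on the gene's own strand, ending at the base before the start site. The RefSeq starts of all 3 lie inside the GENCODE spans given here. Capitals mark matches to 3 motifs searched on both strands: TTNNGNAA, of the kind C/EBP factors bind, TTCNNNGAA, of the kind STAT factors bind, and TGTTTNC, of the kind forkhead (FOXA) factors bind.

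ITIH3 (chr3:52794546-52794795, plus): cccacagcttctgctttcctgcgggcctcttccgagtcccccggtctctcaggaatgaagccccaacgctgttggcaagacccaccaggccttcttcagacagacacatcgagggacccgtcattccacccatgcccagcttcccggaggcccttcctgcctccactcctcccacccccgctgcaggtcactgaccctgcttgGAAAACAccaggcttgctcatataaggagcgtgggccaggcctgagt

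ITIH4 (chr3:52830673-52830922, minus): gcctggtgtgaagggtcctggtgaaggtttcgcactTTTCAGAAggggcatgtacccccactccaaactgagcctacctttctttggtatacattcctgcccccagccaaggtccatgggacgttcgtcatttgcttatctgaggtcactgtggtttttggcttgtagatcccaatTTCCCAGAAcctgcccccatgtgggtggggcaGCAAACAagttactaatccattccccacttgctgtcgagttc

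ORM1 (chr9:114322848-114323097, plus): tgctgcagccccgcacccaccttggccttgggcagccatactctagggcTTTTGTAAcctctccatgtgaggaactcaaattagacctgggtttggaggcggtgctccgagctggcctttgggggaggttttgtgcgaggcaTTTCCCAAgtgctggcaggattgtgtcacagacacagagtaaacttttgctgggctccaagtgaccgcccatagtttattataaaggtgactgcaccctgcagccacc

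ITIH3 held 1 forkhead match 47 bases before the start and no match to the other motifs. ITIH4 held a C/EBP match 214 bases, a STAT match 74 bases and a forkhead match 42 bases before the start. ORM1 held C/EBP matches 201 and 108 bases before the start. No matches overlapped. Among 35116 RefSeq promoter windows of 250 bases, 33.2% held the C/EBP motif, 6.57% the STAT motif and 15.5% the forkhead motif, so a match describes the letters and is no evidence of binding. Of the 10 genes 6 had entries in the promoter table: ITIH1 had 3 entries with different starts and is not shown, and A2M, HP, ITIH2 and LBP were not among them.

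Averaged over the 16 sites, no gene passed the test against purified water. In edgeR's quasi-likelihood test 0 of 7 genes were called at an adjusted p under 0.05 (Benjamini-Hochberg over all features), where 0.0576% of all 6947 features were called; without the 3 libraries it was 0 of 7, where 0.174% were called, and DESeq2 also called 0. At an unadjusted p under 0.05 the numbers were 0 with all libraries and 2 without the 3, HP at -0.22 ± 0.097 and A2M at 0.18 ± 0.087 (log2 change ± SE). Of all features 162 of 6947 reached that threshold with all libraries and 336 of 6916 without the 3. The log2 changes with all libraries ran from -0.22 for HP to 0.26 for HPX with a median of 0.01, against -0.02 over all features.

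Between sites, ITIH1, ITIH3 and ORM1 differed. In the F test of equal means over the 16 sites these 3 of 7 genes were called, where 29.8% of all features were called. The contrast held no control library, but the controls shared in the scaling and in the estimate of the spread. Fitted on the site libraries alone, 2 of 7 genes were called, with 1703 features called. ORM1 was not among them (adjusted p = 0.0606). Without the 3 libraries 6 of 7 were called, all but HPX, where 49.8% of features were called. Set against controls site by site, 2 of 112 tests were called with all libraries, where 0.883% of all feature and site pairs were called, and 10 of 112 without the 3 libraries, 6 higher and 4 lower, where 4.09% were called. The called tests fell at CRMI, CROH, LRMN and RRMI.

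**Figure D1:**
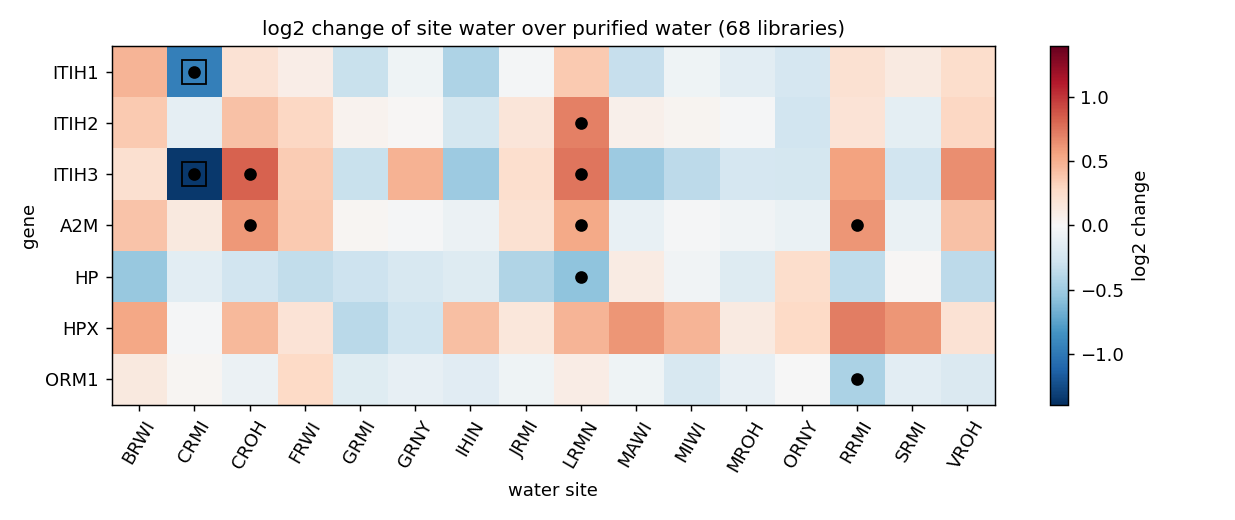
Log2 change of each site's water over purified water for the 7 tested genes (rows) at the 16 sites (columns), fitted without VROH 2, CRMI 1 and SRMI 3. Black dots mark an adjusted p under 0.05 in that fit, squares mark it with all 71 libraries: ITIH1 and ITIH3 carry both at CRMI, at -0.96 and -1.35.

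The heavy chain genes ITIH1 and ITIH3 were low at CRMI. ITIH1, which encodes heavy chain 1 of inter-alpha inhibitor, had 1.21, 9.77, 9.25 and 5.88 CPM in the CRMI libraries, against a lowest value of 13.1, a median of 16.0 and a highest value of 18.2 in controls. CRMI 1 was the lowest, and the highest CRMI library lay below the lowest control. ITIH1 fell by 1.38 ± 0.283 on the log2 scale with all libraries (adjusted p = 0.00268) and by 0.96 ± 0.245 without the 3 libraries (adjusted p = 0.0108). Fitted with the CRMI and control libraries alone the value was -1.38, with an adjusted p of 0.0682.

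ITIH3, which encodes heavy chain 3 of pre-alpha inhibitor, had 5.77, 7.25, 6.65 and 6.996 CPM in the CRMI libraries, against a lowest value of 13.3, a median of 18.1 and a highest value of 21.5 in controls. Here CRMI 1 lay with the other CRMI libraries and no library overlapped the controls. ITIH3 fell by 1.43 ± 0.327 with all libraries (adjusted p = 0.00717) and by 1.35 ± 0.379 without the 3 (adjusted p = 0.0192). Across 78 alternative fits the value for ITIH3 stayed between -1.50 and -1.34 and its adjusted p between 0.00122 and 0.0438. Of these fits 71 left out 1 library each, mostly of groups outside the comparison, which touch it only through the shared scaling and spread. The fit without VROH 2 is held both among these and as a setting of its own.

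At CRMI 2 of the 3 tested heavy chains were called, where 3.74% of all features were called with all libraries and 8.01% without the 3. ITIH2, which encodes heavy chain 2, had 66.9, 702, 649 and 640.3 CPM in the CRMI libraries, against a lowest value of 584, a median of 755 and a highest value of 822 in controls. Apart from CRMI 1 these lay inside the control range, and the log2 change was -0.49 ± 0.31 with all libraries (adjusted p = 0.412) and -0.12 ± 0.171 without the 3 (adjusted p = 0.707). The median over the 3 tested heavy chains at CRMI was -1.38 with all libraries, against -0.02 over all features, and -0.96 without the 3, against 0.00 over all features.

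The CRMI libraries had 3.18 to 7.30 M counts, against 8.18 to 14.5 M in controls, and ITIH1 rested on 93 counts and ITIH3 on 114 counts over the 4 CRMI libraries. The part of depth in these results was not tested. The 6 immune markers summed to 750 to 1070 CPM at CRMI without CRMI 1 and 1510 to 2130 CPM in controls; 3 of the 6 were tested and 1, LYZ, was called at -1.08 ± 0.29 (adjusted p = 0.0248), with PTPRC and CD163 at 0 in controls. Without the 3 libraries immune markers were called in 11 of 48 site tests (22.9%, where 4.09% of all feature and site pairs were). LYZ was called at 10 sites, higher at CROH, FRWI, GRNY, JRMI, LRMN and RRMI and lower at CRMI, IHIN, MAWI and ORNY, and CD68 at LRMN. Their part in the results was not tested. The summed hepatocyte markers were at 175000 to 212000 CPM at CRMI without CRMI 1, against 144000 to 201000 CPM in controls. The log2 changes of the 8 genes at CRMI ran from -0.20 to 0.39 with all libraries, CRMI 1 included.

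The highest means of ITIH3 were at CROH, LRMN, VROH without VROH 2, and RRMI. ITIH3 had 24.7, 27.1, 37.8 and 37.5 CPM at CROH, 30.9, 40.0, 16.9 and 31.0 at LRMN and 35.2, 21.6, 23.4 and 25.7 at RRMI, against a lowest value of 13.3, a median of 18.1 and a highest value of 21.5 in controls. At CROH and RRMI no library overlapped the controls, and at LRMN 1 library lay inside the control range. Without the 3 libraries ITIH3 rose at CROH by 0.82 ± 0.269 (adjusted p = 0.0394) and at LRMN by 0.75 ± 0.27 (adjusted p = 0.0444), and the value at RRMI was 0.56 ± 0.27 (adjusted p = 0.339). With all libraries, when neither passed the test, the values were 0.84 at CROH (adjusted p = 0.0872) and 0.74 at LRMN (adjusted p = 0.0998), and over the 78 alternatives the adjusted p ran from 0.00284 to 0.334 at CROH and from 0.0158 to 0.421 at LRMN.

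At the other sites ITIH3 had 14.2, 21.3, 18.6 and 28.1 CPM at BRWI, 33.7, 26.6, 14.6 and 13.8 at FRWI, 16.1, 11.8, 17.2 and 11.8 at GRMI and 31.7, 8.94, 18.5 and 40.7 at GRNY. It had 11.6, 10.04, 9.80 and 17.7 CPM at IHIN, 24.8, 16.1, 21.9 and 20.7 at JRMI, 6.92, 15.6, 10.3 and 15.6 at MAWI and 8.21, 17.4 and 15.0 at MIWI. It had 10.9, 19.7, 20.5 and 7.08 CPM at MROH, 15.5, 13.8, 11.4 and 18.8 at ORNY, 5.72, 16.2, 18.1 and 20.6 at SRMI and 29.9, 0, 17 and 38.4 at VROH, the 0 being VROH 2. Apart from VROH with VROH 2, GRNY had the widest spread, with its lowest library under every control and its highest above every control. The F value between sites was 5.71 with all libraries (adjusted p = 1.05e-05) and 5.03 without the 3 (adjusted p = 2.47e-05).

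ITIH1 had 19.1, 15.2, 18.9 and 21.8 CPM at CROH, 27.9, 22.5, 15.2 and 16.9 at LRMN, 20.1, 17.1, 19.9 and 18.0 at RRMI and 21.6, 21.7, 17.4 and 27.7 at BRWI. It had 20.4, 21.4, 12.6 and 12.9 CPM at FRWI, 11.7, 9.04, 17.6 and 12.9 at GRMI, 23.1, 8.18, 13.9 and 15.7 at GRNY and 7.001, 12.1, 10.8 and 16.7 at IHIN. It had 14.9, 14.9, 17.7 and 15.2 CPM at JRMI, 8.58, 13.6, 11.8 and 16.3 at MAWI, 11.8, 16.6 and 17.3 at MIWI and 17.8, 14.4, 13.3 and 12.2 at MROH. BRWI had the highest mean, 22.1 CPM, 2.66 times that of CRMI without the 3 libraries, and overlapped the controls. At the last sites ITIH1 had 13.2, 13.7, 11.5 and 15.5 CPM at ORNY, 12.8, 19.4, 8.60 and 19.6 at SRMI and 21.9, 0, 15.7 and 20.1 at VROH. The F value between sites was 3.60 (adjusted p = 0.0016) with all libraries and 3.91 without the 3 (adjusted p = 0.000397).

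ITIH2 was highest at LRMN. It had 1263, 1107, 1286 and 1030 CPM at LRMN and 939.9, 1065, 920.0 and 944 CPM at CROH, against a lowest value of 584, a median of 755 and a highest value of 822 CPM in controls. All libraries of both sites lay above every control. ITIH2 rose at LRMN by 0.70 ± 0.15 without the 3 libraries (adjusted p = 0.00069), where 17.5% of features were called; with all libraries the value was 0.70 ± 0.297 (adjusted p = 0.165), where 5.01% were called. Markers moved at LRMN in that fit as well: of the immune list LYZ was higher, at 1.02 ± 0.149 (adjusted p = 1.52e-06), and CD68 lower, at -0.56 ± 0.175 (adjusted p = 0.0191), the endothelial marker CDH5 was lower, at -2.00 ± 0.536 (adjusted p = 0.00666), and 3 of 8 hepatocyte markers were higher (APOA1, APOB and FGB). LYZ and CDH5 were also called with all libraries. The part of these in the results was not tested. The log2 change of ITIH2 at CROH was 0.41 ± 0.151 without the 3 libraries (adjusted p = 0.0688). The spread of ITIH2 within groups, as the biological coefficient of variation of the fit, was 0.325 with all libraries and 0.177 without the 3, with VROH 2 at 0 and CRMI 1 at 66.9 CPM. Its F between sites was 1.41 (adjusted p = 0.322) with all libraries and 4.18 without the 3 (adjusted p = 0.000197), and leaving out VROH 2 alone was enough for a call.

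**Figure D2:**
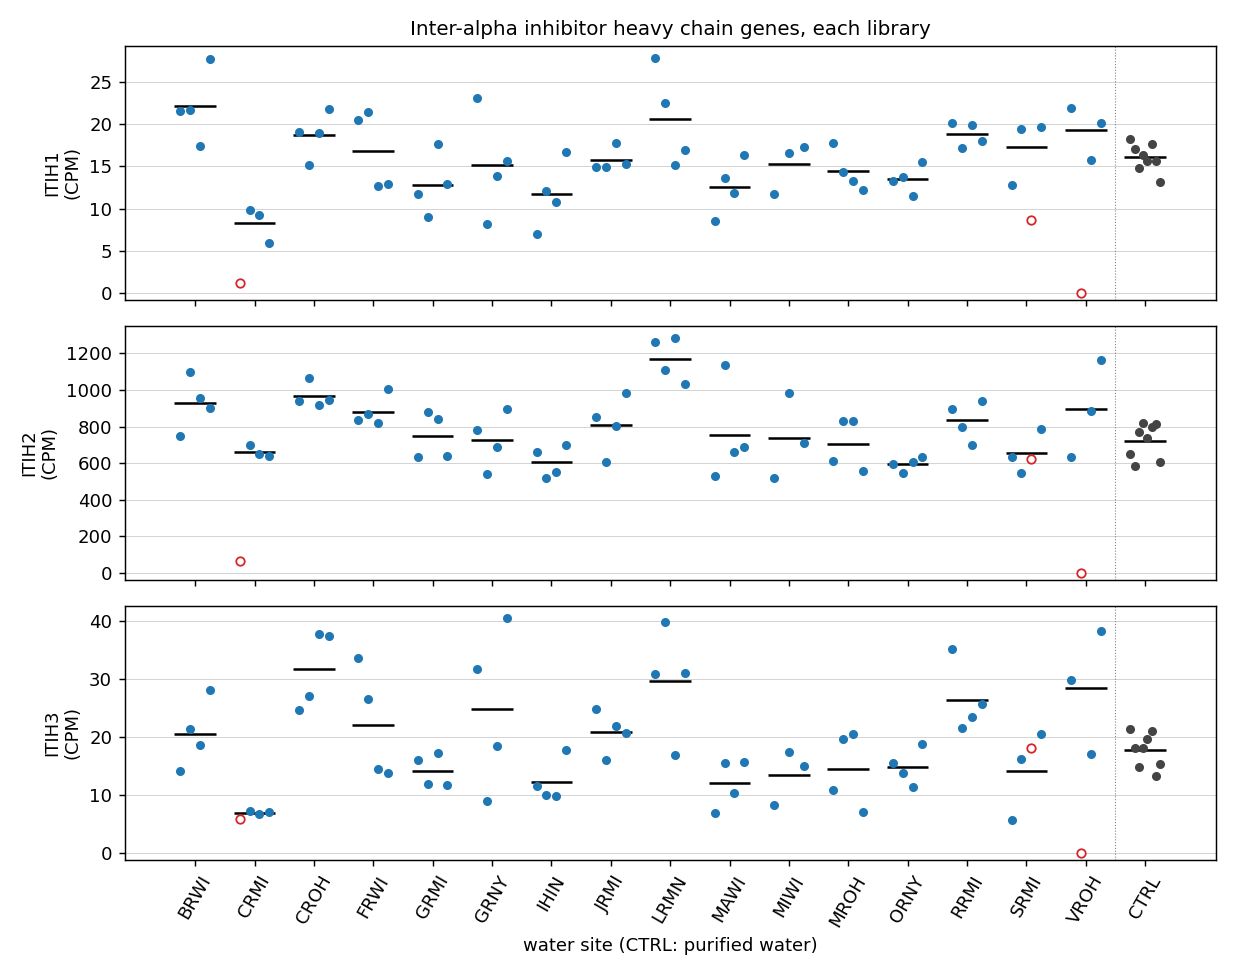
CPM of ITIH1, ITIH2 and ITIH3 in each library (points) at the 16 sites, with controls at the right (grey points); horizontal bars are group means without the libraries VROH 2, CRMI 1 and SRMI 3, which are drawn as open red circles. The CRMI libraries of ITIH1 and ITIH3 lie below all 8 controls, and the LRMN libraries of ITIH2 lie over all 8.

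ITIH4, whose product is a substrate of plasma kallikrein and does not bind bikunin, had 182 counts in all, in 57 of 71 libraries and at most 11 in 1 library. Summed over libraries it was at 0.378 CPM at the 16 sites (95% Poisson interval 0.318 to 0.445), against 0.509 in controls (0.365 to 0.69). The highest sum was at MROH, 0.893 CPM (0.572 to 1.33), and the lowest at MIWI, 0.118 (0.0142 to 0.425). As means over libraries after TMM, CROH was lowest at 0.1246 CPM, with MIWI at 0.1545 CPM. The intervals cover counting error only, and that of MROH overlaps the controls. At RRMI, 0.132 CPM from 4 counts, the interval (0.0359 to 0.337) lay below that of the controls, and at CROH, 0.125 CPM from 3 counts, it ended at 0.365, where that of the controls begins.

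A2M (chr12:9067664-9116229, minus), the protease trap, was high at CROH, RRMI and LRMN. It had 3940, 3779, 3901 and 3817 CPM at CROH, 4067, 3867, 3458 and 4067 at RRMI and 3675, 4179, 3944 and 2702 at LRMN, against a lowest value of 2281, a median of 2472 and a highest value of 2745 in controls. All CROH and RRMI libraries lay above every control, and at LRMN 1 library lay inside the control range. A2M rose, without the 3 libraries, by 0.61 ± 0.136 at CROH (adjusted p = 0.00265), where 10.3% of features were called, by 0.61 ± 0.136 at RRMI (adjusted p = 0.003), where 2.86% were called, and by 0.53 ± 0.136 at LRMN (adjusted p = 0.00442). In the same fit LYZ was also higher at CROH, at 0.64 ± 0.15 (adjusted p = 0.00355), and at RRMI, at 0.52 ± 0.151 (adjusted p = 0.0388), APOB was higher at CROH, at 0.52 ± 0.15 (adjusted p = 0.0204), and FGB lower at RRMI, and their part was not tested. With all libraries the values of A2M were 0.62 at CROH (adjusted p = 0.313), 0.62 at RRMI (adjusted p = 0.67) and 0.53 at LRMN (adjusted p = 0.336), where 2.14%, 0.849% and 5.01% of features were called at the 3 sites.

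The sizes of the A2M values hardly moved between the fits while their errors did: the coefficient of variation of A2M within groups was 0.344 with all libraries and 0.161 without the 3. VROH 2 held 1 A2M count, 19.6 CPM, and CRMI 1 had 566 CPM, against 2619 to 2877 CPM in the other CRMI libraries. TMM set the effective total of VROH 2 at 0.0511 M for its 8872 counts, so its CPM values are lower than counts over its own total. Over the 78 alternatives the log2 change of A2M ran from 0.59 to 0.64 at CROH, from 0.60 to 0.67 at RRMI and from 0.46 to 0.65 at LRMN. All libraries also lay above every control at VROH without VROH 2 (3281, 19.6, 2931 and 3897 CPM with it), at BRWI (3090, 3821, 3233 and 3043) and at FRWI (3009, 3230, 3141 and 3544), none of them called. The F between sites was 1.16 (adjusted p = 0.506) with all libraries and 5.54 without the 3 (adjusted p = 7.85e-06).

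HP (chr16:72054592-72061055, plus) was low at LRMN, the site where A2M, ITIH2 and ITIH3 were high. HP had 151, 157, 153 and 162 CPM at LRMN, against a lowest value of 173, a median of 221 and a highest value of 308 in controls, with no overlap. HP fell by 0.56 ± 0.165 without the 3 libraries (adjusted p = 0.0132), and with all libraries the value was -0.57 ± 0.209 (adjusted p = 0.0998). Over the 78 alternatives it ran from -0.62 to -0.40, with an adjusted p from 0.0129 to 0.35. BRWI, where A2M also lay above every control, was close, with HP at 144.6, 141.9, 195.9 and 153.3 CPM and overlapping the controls. There HP was at -0.53 ± 0.165 without the 3 libraries (adjusted p = 0.101), where 1.14% of features were called, against 17.5% at LRMN. With all libraries it was at -0.54 ± 0.209 at BRWI (adjusted p = 0.514). Site means of HP ran up to 269.4 CPM at ORNY, where the libraries had 390.0, 190.3, 285 and 212 CPM, and HP averaged 230.7 ± 48.4 CPM in controls (SD, n = 8). The F between sites was 2.08 (adjusted p = 0.072) with all libraries and 2.81 without the 3 (adjusted p = 0.00722). HP and its near copy HPR (10.5 ± 6.58 CPM in controls) lie side by side on chromosome 16, and reads could be split between them.

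HPX (chr11:6431049-6442617, minus) rested on few counts and passed no test against controls. It had 4.45, 6.68, 5.71 and 6.28 CPM at RRMI, the highest mean, and 3.31, 2.81, 2.69 and 1.76 CPM at GRMI, the lowest, against a lowest value of 2.71, a median of 3.26 and a highest value of 4.59 CPM in controls. Site and control ranges overlapped at all 16 sites. The largest log2 change was 0.72 ± 0.236 at RRMI without the 3 libraries (adjusted p = 0.0896), and the F between sites was 2.08 (adjusted p = 0.0723) with all libraries and 1.92 without the 3 (adjusted p = 0.0744). DESeq2 called HPX and HP between sites with all libraries, and leaving out any 1 of 5 libraries gave edgeR's call for HPX, with an adjusted p down to 0.0314. No library held more than 58 HPX counts.

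ORM1 was lowest at RRMI once VROH 2 was left out, and at VROH with it. It had 24.3, 26.8, 25.6 and 25.7 CPM at RRMI, against a lowest value of 27.9, a median of 35.3 and a highest value of 39.6 in controls, with no overlap. ORM1 fell by 0.44 ± 0.115 without the 3 libraries (adjusted p = 0.0163), and with all libraries the value was -0.44 ± 0.133 (adjusted p = 0.125). It was highest at FRWI, with 36.5, 40.0, 46.4 and 45.9 CPM, overlapping the controls. The F between sites was 2.32 (adjusted p = 0.0394) with all libraries and 3.12 without the 3 (adjusted p = 0.00317); over 77 alternatives the adjusted p ran from 0.00317 to 0.157, and leaving out any 1 of 10 libraries, all 4 of RRMI and 3 of FRWI among them, ended the call.

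At the other sites ORM1 had 34.2, 39.8, 48.1 and 30.8 CPM at BRWI, 27.6, 35.3, 34.4 and 36.1 at CRMI, 30.7, 32.9, 39.8 and 28.7 at CROH and 30.7, 33.7, 33.5 and 25.3 at GRMI. It had 30.8, 30.6, 29.1 and 37.5 CPM at GRNY, 32.4, 30.6, 33.4 and 28.1 at IHIN, 40.6, 26.7, 31.1 and 34.4 at JRMI and 34.4, 37.0, 47.8 and 29.7 at LRMN. It had 32.1, 36.3, 34.2 and 30.2 CPM at MAWI, 32.6, 31.9 and 24.1 at MIWI, 34.1, 30.2, 31.8 and 31.2 at MROH and 36.1, 28.6, 35.4 and 36.5 at ORNY. Each of these sites overlapped the controls. SRMI had 38.7, 27.7, 27.6 and 28.1 CPM and VROH 28.5, 0, 30.1 and 33.2 CPM, the 0 being VROH 2, and both overlapped the controls. ORM1 (chr9:114323056-114326475, plus) has a near copy, ORM2, on the same chromosome, at 117.7 ± 18.6 CPM in controls, and reads could be split between them; ORM2 was called lower at GRNY without the 3 libraries (-0.43 ± 0.139, adjusted p = 0.0414).

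**Figure D3:**
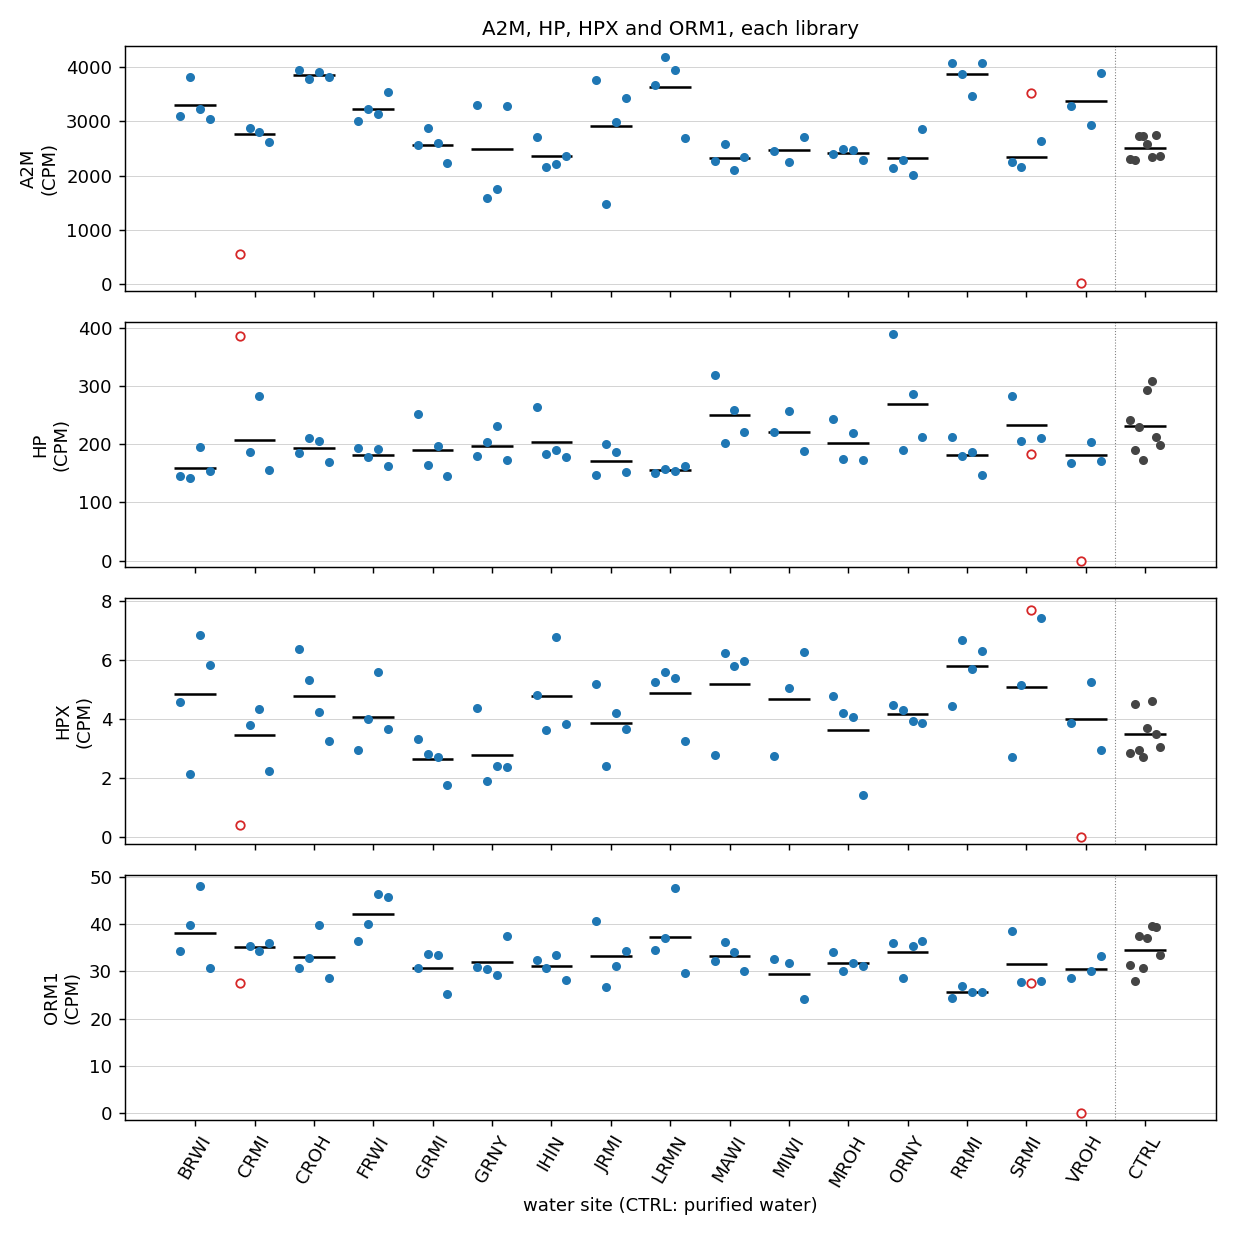
CPM of A2M, HP, HPX and ORM1 in each library (points) at the 16 sites, with controls at the right (grey points); horizontal bars are group means without VROH 2, CRMI 1 and SRMI 3, drawn as open red circles. The CROH and RRMI libraries of A2M lie above all 8 controls, and the RRMI libraries of ORM1 and the LRMN libraries of HP lie below them.

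LBP (chr20:38346356-38377023, plus), which hands bacterial lipopolysaccharide to CD14, had 132 counts in 49 of 71 libraries and at most 7 in 1 library. It was at 0.311 CPM over the 16 sites (95% Poisson interval 0.257 to 0.373), against 0.199 in controls (0.113 to 0.322). MROH was highest at 0.707 CPM (0.425 to 1.1), where the 4 libraries summed to 19 counts, against 16 counts in the 8 controls; its interval lay above that of the controls, with MROH picked as the highest of 16 sites and counting error alone covered. CRP (chr1:159712289-159714589, minus), the classical human acute phase marker, had 1 count in a CROH library and 1 in a MROH library and 0 counts in the controls, which allows a level of up to 0.0372 CPM there (3 counts over the group). Neither gene passed the filter on low counts, and no test was made.

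When the 17 groups were ranked by mean, all 16 pairs of neighbours overlapped in their libraries for each of the 10 genes, so adjacent ranks do not differ beyond their spread. Without the 3 libraries, 13 of 112 gene and site pairs did not overlap the controls, 11.6%, where 5.25% of all feature and site pairs did not. Of these 5 were A2M above the controls, 2 ITIH2 above, 2 ITIH3 above and 1 below, and 1 each of ITIH1, HP and ORM1 below.

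Site means moved together for some of the genes. Over the 16 site means of log2 CPM without the 3 libraries, Pearson's r was 0.841 between ITIH1 and ITIH3, 0.843 between ITIH2 and A2M, 0.773 between ITIH2 and ITIH3 and 0.715 between ITIH1 and ITIH2. HP ran the other way, with r of -0.767 with ITIH2 and -0.699 with A2M. ORM1 followed none of the heavy chains, with r of 0.022 with ITIH1, 0.309 with ITIH2 and -0.004 with ITIH3. These values are descriptions: the 16 points share the plating and the scaling, and differ in depth.

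**Figure D4:**
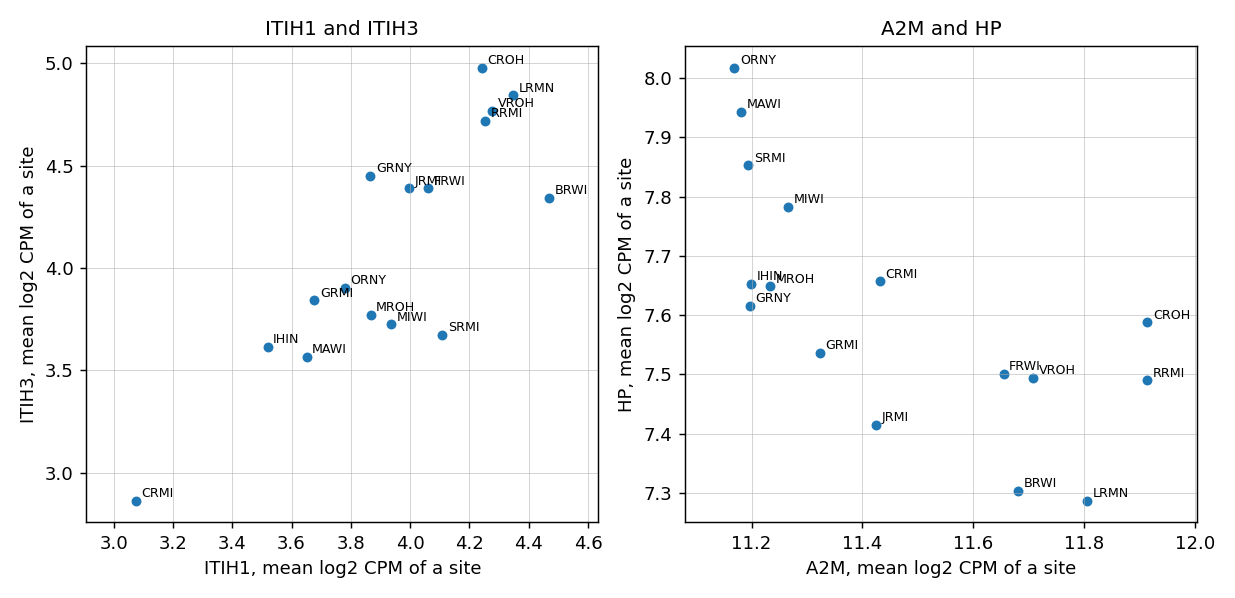
Mean log2 CPM of each of the 16 sites without VROH 2, CRMI 1 and SRMI 3, for ITIH3 against ITIH1 (left) and HP against A2M (right). CRMI stands at the low end of both heavy chains. LRMN combines a high A2M level with the lowest HP level (7.287), and BRWI lies close to it (HP at 7.303).

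Among the tested features outside the 10 genes, those whose 16 site means were most like ITIH3 were NFE2L1, a transcription factor of proteasome genes (r = 0.976), the plexin PLXNB1 (0.961) and the mitochondrial ribosomal protein MRPL33 (0.958). For ITIH1 they were GSAP (0.883), DUOXA2, the maturation factor of the oxidase DUOX2 (0.876), and PLXNB1 (0.87). For ORM1 they were ANXA7 (0.796), AGO1 (0.766) and APOL1 (0.765). GSAP (adjusted p = 0.102), ANXA7 (0.611), AGO1 (0.717) and APOL1 (0.459) were not themselves called between sites by edgeR's F test with all libraries, and all were picked for the highest r among the tested features.

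The light chain and the hyaluronan genes were a list of 11, of which 5 were tested. In site tests 1 of 80 was called with all libraries (1.25%, where 0.883% of all feature and site pairs were). Without the 3 libraries 3 of 80 were called (3.75%, where 4.09% of all pairs were). AMBP, the source of bikunin, was at 1903 ± 235 CPM in controls (SD, n = 8). AMBP fell at CRMI by 0.57 ± 0.156 without the 3 libraries (adjusted p = 0.0169) and rose at LRMN by 0.37 ± 0.135 (adjusted p = 0.0475), and neither was called with all libraries. HYAL2, a hyaluronidase, rose at LRMN by 0.37 ± 0.112 with all libraries (adjusted p = 0.0392), and it and HYAL1 were the 2 of 5 called between sites, with F of 2.60 (adjusted p = 0.0197) and 2.28 (adjusted p = 0.0434). Of all features 29.8% were called between sites in that fit. Without the 3 libraries 3 of 5 were called between sites, where 49.8% of all features were.

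Other acute phase proteins that rise in inflammation were a list of 16, of which 14 were tested, and 2 of their 224 site tests were called with all libraries, both for HAMP, the iron hormone hepcidin. That was 0.893%, where 0.883% of all feature and site pairs were called. HAMP was lower at LRMN, at -4.05 ± 0.319 (adjusted p = 9.74e-15), and at BRWI, at -1.96 ± 0.263 (adjusted p = 9.55e-07). With the 3 libraries left out 17 of 224 were called (7.59%, where 4.09% of all pairs were), 4 higher and 13 lower. At CRMI the called genes were AGT, angiotensinogen, at -0.91 ± 0.235 (adjusted p = 0.0118), and the complement protein C3 at -0.36 ± 0.104 (adjusted p = 0.0234). At LRMN C3 was at 0.30 ± 0.091 (adjusted p = 0.0149) and the fibrinogen chains FGB and FGG at 0.29 ± 0.091 (adjusted p = 0.0205) and 0.31 ± 0.106 (adjusted p = 0.0352). At RRMI, where ORM1 was low, FGB and FGG were also lower, at -0.35 ± 0.093 (adjusted p = 0.0202) and -0.59 ± 0.11 (adjusted p = 0.000312). FGA was lower at CROH, at -0.71 ± 0.204 (adjusted p = 0.0188), where C3 was higher, at 0.32 ± 0.091 (adjusted p = 0.0184). Between sites 3 of 14 were called with all libraries, HAMP, AGT and C3, where 29.8% of all features were. Without the 3 libraries 11 of 14 were called between sites, where 49.8% of all features were.

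Of 8 negative acute phase proteins 5 were tested and 0 of 80 site tests were called by edgeR with all libraries, 0 by DESeq2, and 1 at an unadjusted p under 0.05 by either tool. Of all feature and site pairs edgeR called 0.883% with all libraries and 4.09% without the 3. At an unadjusted p under 0.05 it had 211 of 6947 features at MIWI, the fewest, and 1393 at LRMN, the most, with all libraries. Leaving out the 3 libraries gave 2 calls of 80 (2.5%), F12 at CRMI (-0.55 ± 0.179, adjusted p = 0.0456) and APOA1 at LRMN (0.32 ± 0.079, adjusted p = 0.0028). Between sites 0 of 5 were called with all libraries, where 29.8% of all features were, and 1 of 5 without the 3, where 49.8% were. Albumin (ALB) had an F between sites of 0.429 (adjusted p = 0.988) with all libraries.

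The receptors and signalling genes of the acute phase response, 11 of 11 tested, were called between sites in 5 cases with all libraries: IL1RAP, the interleukin-1 co-receptor (F = 6.05, adjusted p = 4.86e-06), OSMR (4.18, adjusted p = 0.000373), LIFR (3.78, adjusted p = 0.00102), MYD88 (2.95, adjusted p = 0.0082) and NFKBIA (2.25, adjusted p = 0.0473). Against controls 1 of 176 site tests was called, MYD88 at SRMI (1.25 ± 0.243, adjusted p = 0.00221), which was not called without the 3 libraries. With the 3 libraries left out 7 of 176 were called (3.98%, where 4.09% of all pairs were). IL1RAP was lower at CRMI, at -1.11 ± 0.285 (adjusted p = 0.011), and at SRMI, at -1.13 ± 0.256 (adjusted p = 0.0126). At LRMN 4 were higher: OSMR at 0.54 ± 0.12 (adjusted p = 0.00114), IL1R1 at 0.34 ± 0.099 (adjusted p = 0.0123), IL1RAP at 0.65 ± 0.2 (adjusted p = 0.0184) and LIFR at 0.92 ± 0.335 (adjusted p = 0.0464). In that fit 17.5% of all features were called at LRMN. NFKBIA, the NF-kappa-B inhibitor, was higher at CROH, at 1.28 ± 0.358 (adjusted p = 0.0163).

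Of the 14 transcription factors of acute phase genes, all tested, 7 of 224 site tests were called with all libraries, 5 higher and 2 lower. That was 3.12%, where 0.883% of all feature and site pairs were called. JUNB, an AP-1 subunit, fell at CRMI by 1.12 ± 0.267 (adjusted p = 0.00918). FOXA3, a hepatocyte forkhead factor, rose at CROH by 0.54 ± 0.153 (adjusted p = 0.0434), at LRMN by 0.56 ± 0.153 (adjusted p = 0.0192) and at RRMI by 0.72 ± 0.151 (adjusted p = 0.00324). Without the 3 libraries it was called at these sites and at JRMI (0.46 ± 0.138, adjusted p = 0.048), where A2M was at 0.21 ± 0.137 (adjusted p = 0.436). At LRMN ONECUT1 rose by 0.48 ± 0.133 (adjusted p = 0.0229) and CEBPA, a C/EBP factor, fell by 0.61 ± 0.181 (adjusted p = 0.0339), while CEBPA rose at SRMI by 0.70 ± 0.169 (adjusted p = 0.0193). FOXA1, in the fit without the 3 libraries, was lower at CRMI (-0.38 ± 0.126, adjusted p = 0.0465) and higher at LRMN (0.48 ± 0.108, adjusted p = 0.00126) and CROH (0.45 ± 0.108, adjusted p = 0.00471). FOXA1 was also higher at GRNY (0.48 ± 0.108, adjusted p = 0.00588), JRMI (0.44 ± 0.108, adjusted p = 0.0135) and FRWI (0.41 ± 0.108, adjusted p = 0.0322), sites with no call for the 10 genes. A link between these factors and the 10 genes was not tested. Between sites 6 of 14 were called, with CEBPA at F = 7.35 (adjusted p = 3.19e-07), JUNB at 7.24 (adjusted p = 3.98e-07) and JUN at 5.56 (adjusted p = 1.44e-05) in front. Of all features 29.8% were called between sites with all libraries. Without the 3 libraries 8 of 14 were called between sites, where 49.8% of all features were. In that fit 20 of 224 site tests were called, 15 higher and 5 lower (8.93%, where 4.09% of all pairs were). CEBPB, CEBPD, NFKB1 and HNF4A were not called between sites in either fit.

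Receptors, paralogs and haem handling partners were a list of 10, with 6 tested and 0 of 96 site tests called by edgeR with all libraries and 0 by DESeq2. At an unadjusted p under 0.05 there were 10 by edgeR and 12 by DESeq2. Over all features edgeR had 211 of 6947 at that threshold at MIWI, the fewest, and 1393 at LRMN, the most. Of all feature and site pairs edgeR called 0.883% with all libraries. Without the 3 libraries 3 of 96 site tests were called (3.12%, where 4.09% of all pairs were). With all libraries LRP1, the receptor that clears A2M bound to proteases, was called between sites (F = 3.62, adjusted p = 0.00152), as was the haem oxygenase HMOX2 (3.25, adjusted p = 0.00379). Between sites 2 of 6 were called in either fit, where 29.8% of all features were with all libraries and 49.8% without the 3. Without the 3 libraries LRP1 was higher at CROH, at 0.49 ± 0.142 (adjusted p = 0.0205), and lower at ORNY, at -0.50 ± 0.147 (adjusted p = 0.0399), where A2M was at -0.10 ± 0.139 (adjusted p = 0.766), and HMOX2 was lower at LRMN, at -0.77 ± 0.256 (adjusted p = 0.029). A link between LRP1 and A2M was not tested. HMOX1, the inducible haem oxygenase, had an F between sites of 1.74 (adjusted p = 0.161). CD163, the receptor of haptoglobin bound to haemoglobin, was at 0 in controls.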

How the data were processed

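TempO-Seq values were deposited by the authors as 1 table of estimated counts per gene symbol and library; Salmon and the build GRCh38 are named per the submitters' processing notes, with no versions or normalization given. Among values under 20, a median of 93.2% per library were whole within 0.02, and estimated counts were rounded to whole numbers. The table as held here ends before RAI14, and later symbols were not analysed here. Columns were matched to libraries by name; those of MIWI and GRMI are numbered as in the table. Features were filtered with filterByExpr (minimum count 10), scaled by TMM and tested with edgeR 4.0.16 (quasi-likelihood; R 4.3.3) with 1 mean for each of 17 groups and Benjamini-Hochberg adjustment over all features, called under 0.05. The fit was tested on simulated data. DESeq2 1.42.0, size factors of the RLE type, no filter, a replicate block, a site and the controls alone, and leaving out libraries were tried. No libraries were identical. Replicate numbers did not pair the libraries (median correlation of deviations 0.024 within a number, 0.007 between). The 10 genes and all lists were chosen with earlier results of these data known. Named genes of other lists were mainly the 3 with the smallest F test p per list and those called at a site where 1 of the 10 was called (at most 4 per list). Promoters came from RefSeq (GRCh38.p14), positions from GENCODE release 29. Intervals are exact Poisson at 95% and cover counting error only.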

Additional observations from a re-analysis of the deposited data

Results flagged for a closer look

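Between the 16 sites, ITIH1 (F = 3.6), ITIH3 (F = 5.71) and ORM1 (F = 2.32) differed by edgeR's F test with all 71 libraries.

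Within groups, 10 of 112 gene and group combinations held a library far from the rest, where chance gives about 5.6. Of these, 3 were in libraries that stood apart as a whole: ITIH2 at 66.9 CPM in CRMI 1 (640 to 702 CPM in the other CRMI libraries), A2M at 566 CPM in CRMI 1 (2619 to 2877 CPM) and ORM1 at 0 CPM in VROH 2 (28.5 to 33.2 CPM). The other 7 were in libraries of ordinary depth. ITIH1 was at 17.7 CPM in JRMI 3 (14.9 to 15.2 CPM in the rest), and ITIH2 at 1065 CPM in CROH 2 (920 to 943 CPM). HP was at 264 CPM in IHIN 1 (178 to 190 CPM). HPX was at 3.24 CPM in LRMN 4 (5.23 to 5.58 CPM) and at 2.77 CPM in MAWI 1 (5.8 to 6.24 CPM). ORM1 was at 28.6 CPM in ORNY 2 (35.4 to 36.5 CPM) and at 38.7 CPM in SRMI 1 (27.6 to 28 CPM).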

How the results depend on the processing

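The counts of site tests moved by over 1.5 times without VROH 2 or without CRMI 1, and the count of the 10 genes called between sites without VROH 2; leaving out SRMI 3 alone moved no count by that much. Site tests called for the 10 genes numbered 2 with all libraries, 10 without VROH 2, CRMI 1 and SRMI 3, 4 without VROH 2, 14 with each site and the controls alone, and 2 to 4 when leaving out single libraries, with 4 reached without CRMI 1. Genes called between sites numbered 3, then 6 without the 3 libraries, 6 without VROH 2, 5 with DESeq2 and 2 to 6 leaving out single libraries. Over all features, the mean of sites gave 4 calls, 12 without the 3 libraries, 7 without VROH 2, 2 with no filter, 2 with the replicate block and 2 to 7 leaving out single libraries. Site tests gave 982 calls, 4528 without the 3 libraries, 2142 without VROH 2, 4156 with each site and the controls alone, 1570 with DESeq2, 510 with no filter, 297 with the replicate block and 743 to 2142 leaving out single libraries. Differences between sites gave 2073 calls, 3446 without the 3 libraries and 1926 to 2624 leaving out single libraries. With the replicate block the comparisons with controls rest on CTRL 1 to 4, because numbers 5 to 8 occur only in controls. The cause was not tested.

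With the replicate block the 10 genes had 2 site calls and 3 calls between sites. ORM1 lost its call between sites (adjusted p = 0.0576) and HP was called there. For 14 of 61 libraries the mean correlation with libraries of other groups was highest for their own number. Each library had 1 own number among the numbers 1 to 4, so some such matches arise without any pairing. Averaged over sites, the uncalled log2 change of HP was -0.08 with the block and -0.22 without it, and that of ORM1 0.04 and -0.09. Numbers 5 to 8 occur only in controls, so with the block each of these libraries had its own term. The control mean then rests on CTRL 1 to 4. HP was at 241.6, 190.5, 229.8 and 173.1 CPM in CTRL 1 to 4 and at 293.2, 308, 211.6 and 198 CPM in CTRL 5 to 8. ORM1 also lost its call between sites with no filter (0.157) and with the sites alone (0.0606). No direction of a called value turned in any alternative run. At a few M counts per library HPX, ITIH4, LBP and CRP are limited by depth.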
